A study of Saccharomyces cerevisiae with 28 samples.

Results

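The sites described here are the places where the yeast La-related proteins (LARPs) Slf1 and Sro9 were crosslinked to RNA just before a start codon. A cluster, a pile of overlapping crosslinked reads, counted as a before-start cluster when its mode (the position of highest signal) lay 1 to 100 nt before the start codon of a protein-coding gene on the same strand. Clusters whose mode lay in another annotated gene on that strand, or within 200 nt after the stop codon of one, were left out. A gene on the opposite strand did not exclude a cluster. Clusters entered if they were 11 to 100 nt long and held 5 reads or more with 2 or more T-C conversion events. Of the 34687 that did, 309 were before-start clusters. They grouped into 236 sites before 196 of the 6021 annotated protein-coding genes. The annotation holds no transcript ends, so the window is not a measured 5′ leader, and its far part can lie outside the mRNA of genes with short leaders.

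The LARPs were purified from Saccharomyces cerevisiae strains derived from BY4741, in which the chromosomal SLF1 or SRO9 gene, under its own promoter, carried a C-terminal TAP affinity tag. PAR-CLIP libraries came from Slf1-TAP cells after 15 min in 0.4 mM H2O2 and from untreated Slf1-TAP cells, and likewise from Sro9-TAP cells after H2O2 and untreated, with 2 libraries per group and 8 in all. Total RNA came from 12 libraries of untagged strains, 2 each of WT, sro9Δ and slf1Δ cells after the same H2O2 treatment and untreated. PAR-CLIP used duplicate cultures for each condition. The total RNA experiment was made in duplicate, and its cultures were split into a treated and an untreated part. The sources used here do not say whether equal replicate numbers mark the parts of 1 culture.

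Slf1 and Sro9 share the La motif, an RNA-binding fold, and both are known to travel with polysomes. In the scanning model of initiation, the small ribosomal subunit loads at the cap and moves along the 5′ leader until it meets a start codon, so protein on the leader or over the start codon sits on the path of initiating ribosomes. In PAR-CLIP, RNA that has taken up 4-thiouracil is crosslinked to protein by UV light, and the crosslinked uridine then appears in the reads as C where the genome has T.

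The sequences of the strongest sites are shown first because they carry the positions that the results turn on. They are R64 reference sequence, 5′ to 3′, of at most 30 nt around the mode of the strongest cluster. In the stretches that do not include the start codon, a single capital marks the mode.
RPS12 (chrXV:1028655-1028684, minus strand): tttaattaTcttactgtcgaagaagtcaaa
RPS2 (chrVII:277530-277552, plus strand): atattgtcgatTgaaagttacct
RPP2B (chrIV:1239419-1239448, plus strand): gtccgcgaatttattAccgcttaaactgat
MET4 (chrXIV:427711-427728, plus strand): attcctttttttCcactg
RPL1B (chrVII:254581-254610, plus strand): Aactagtcgcaagcctcacggaccaccaaa
RPS31 (chrXII:498892-498921, plus strand): Aagattacttggtaagaaagaagcagttaa
In the stretches that include it, the annotated start codon is in capitals.
RPP1A (chrIV:310115-310144, minus strand): atctctaaaataacaagaagaaATGtctac
RPL28 (chrVII:310955-310984, plus strand): aactaatcaagaATGccttccagattcact
HAC1 (chrVI:75176-75201, plus strand): actATGgaaatgactgattttgaact
RPL4B (chrIV:471852-471881, plus strand): aATGtcccgtccacaagttactgttcactc
RPL16A (chrIX:99403-99430, minus strand): aacaaatcgagaaaATGtctgttgaacc
The tract of 7 consecutive T in the MET4 site is the longest in the stretches shown here, and the 5 stretches with a start codon all begin with A. The RPL1B cluster, 72 nt long, also ran past its start codon beyond the stretch shown. The remaining site among the 12 with most reads lay before RRT15, an uncharacterised reading frame beside the rRNA genes of chromosome XII.
RRT15 (chrXII:490378-490407, plus strand): gactaaaggatcgatAggccacactttcat
The RRT15 cluster sequence occurs 3 times in the genome, whereas 229 of the 236 sites (97.0%) have a unique sequence there.

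Depth differed strongly between the proteins. The libraries held 709 to 1825 kept clusters for Slf1 and 6505 to 9022 for Sro9, of which 4 to 19 and 57 to 89 were before-start clusters. Reads in before-start clusters numbered 58 to 216 per Slf1 library and 851 to 1593 per Sro9 library. The before-start clusters held a median of 11 reads (quartiles 7 and 20, highest 236), and 33 of them stood exactly at the minimum of 5. Of the deposited clusters in the window, 11 were left out because they exceeded 100 nt and 1 because it had fewer than 5 reads. At the far edge, 33 clusters had their mode 81 to 100 nt before the start codon, with a median of 11 reads, and 35 clusters that were left out had it in the next 20 nt, with a median of 8. A site is blank in a library when no cluster passed these limits with its mode there. Reads under a cluster with its mode elsewhere, in the ORF for example, leave it blank too, so a blank is not an absence of binding.

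Before-start clusters were a small share of all clusters for both LARPs. They made up 0.755% (95% Wilson interval 0.422 to 1.35) and 0.705% (0.302 to 1.64) of kept clusters for Slf1 after H2O2, and 0.386% (0.150 to 0.989) and 1.04% (0.668 to 1.62) for untreated Slf1. For Sro9 they made up 0.986% (0.802 to 1.21) and 0.906% (0.714 to 1.15) after H2O2, and 0.846% (0.654 to 1.09) and 0.876% (0.677 to 1.13) untreated. The intervals overlap between all 8 libraries and cover counting error only.

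**Figure D1:**
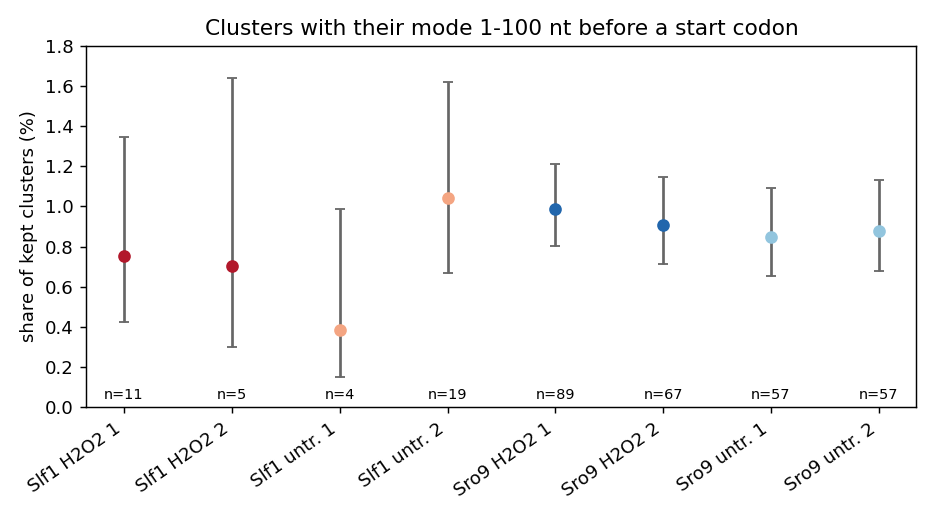
Share of kept clusters (%) that were before-start clusters in each of the 8 PAR-CLIP libraries. Points are the shares, bars the 95% Wilson intervals and n the number of before-start clusters; the Slf1 shares, from 4 to 19 clusters each, have the widest intervals.

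The mean share was 0.722% ± 0.268 for Slf1 and 0.904% ± 0.0604 for Sro9 (SD, n = 4 each), a difference of -0.182 percentage points (exact permutation test, two-sided, p = 0.257, smallest possible 0.0286). The difference was -0.216 points within the H2O2 libraries and -0.148 within the untreated ones, but it turned to 0.267 with a window of 200 nt. Over reads in place of clusters, the share was 0.0357% ± 0.0205 for Slf1 and 0.173% ± 0.0471 for Sro9 (SD, n = 4 each), and the groups did not overlap (exact permutation test, p = 0.0286). Of reads in mRNA clusters alone, in which clusters of rRNA, tRNA and other RNA genes do not count, 0.512% ± 0.180 were before start codons for Slf1 and 0.562% ± 0.0605 for Sro9. Between conditions no difference in the share of clusters could be shown with 2 libraries each. The share averaged 0.946% ± 0.0571 for Sro9 after H2O2 and 0.861% ± 0.0213 untreated (SD, n = 2 each), higher in both H2O2 libraries (exact permutation test, p = 0.333, the smallest that 2 against 2 allows). The difference, 0.0850 points, turned to -0.157 with at least 20 reads per cluster and to -0.00450 with a window of 200 nt. For Slf1 it averaged 0.730% ± 0.0356 after H2O2 and 0.714% ± 0.463 untreated (exact permutation test, p = 1.00).

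The clusters sat toward the start codon. The median distance of the mode was 32 nt, 77 clusters (24.9%) had it within 10 nt, and 106 (34.3%, Wilson interval 29.2 to 39.8) reached over the first base of the start codon. Counts were lower further out, and for Sro9 after H2O2 they were higher again, with 23 modes at 41 to 50 nt and 21 at 51 to 60 nt, after 10 at 21 to 30 nt and 13 at 31 to 40 nt. Untreated Sro9 had 11 and 10 modes at 41 to 50 and 51 to 60 nt and 11 in each of the nearer bins, and no test of this difference was made. The sites of RPS12, RPP2B, RPL1B and RPS31 shown above have their mode in these last bins. Seen across the start codon, clusters thinned sharply from the ORF into the window. In the 100 nt before start codons there were 16 clusters for Slf1 after H2O2, against 92 in the first 100 nt of ORFs, and 23 against 161 for untreated Slf1. For Sro9 there were 156 against 912 after H2O2 and 114 against 740 untreated. Per base available, the density before the start codon was 0.159 to 0.193 times that after it in the 4 groups.

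**Figure D2:**
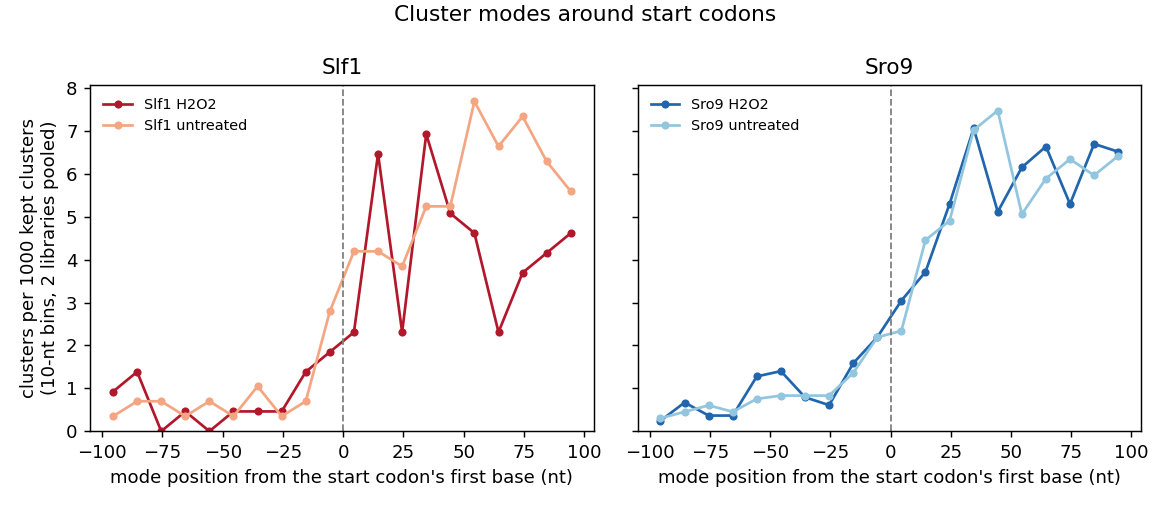
Clusters per 1000 kept clusters in bins of 10 nt by the position of the mode from the first base of the start codon, with both libraries of a group pooled (Slf1 left, Sro9 right; dashed line, start codon). In all 4 groups the bins before the start codon are lower than those from 30 nt into the ORF, and a second low rise, at 41 to 60 nt before it, is seen for Sro9 after H2O2.

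Before-start clusters were compared with ORF clusters and with those up to 200 nt after stop codons within each library, so that depth is shared. All 10 comparisons used exact sign-flip permutation tests over the 8 libraries with Benjamini-Hochberg adjustment over the 10. Clusters were several times sparser before start codons. Their density was 0.0203 and 0.00924 per kb for Slf1 after H2O2, against 0.101 and 0.0399 in ORFs, and 0.00739 and 0.0351 for untreated Slf1, against 0.0646 and 0.137. For Sro9 it was 0.164 and 0.124 per kb after H2O2, against 0.761 and 0.631 in ORFs, and 0.105 in both untreated libraries, against 0.563 and 0.523. The log2 ratio averaged -2.35 and was negative in 8 of 8 libraries (exact test, adjusted p = 0.0195). After stop codons the density was 0.0452 to 0.160 per kb for Slf1 and 0.676 to 1.02 for Sro9, and the log2 ratio of before-start over after-stop averaged -2.63 (8 of 8 libraries, exact test, adjusted p = 0.0195). Both windows can include untranscribed bases, which lowers a density per kb.

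Before-start clusters were richer in uridine than ORF clusters and poorer than those after stop codons. The uridine share ranged from 28.6% to 35.2% over the libraries before start codons, against 28.5% to 29.5% in ORFs, a mean difference of 3.30 percentage points (higher in 7 of 8 libraries, exact test, adjusted p = 0.0313). The exception was the first untreated Slf1 library, with 4 before-start clusters. Against after-stop clusters, at 36.5% to 40.0%, the difference was -5.53 points (lower in 8 of 8 libraries, exact test, adjusted p = 0.0195). The windows themselves held 29.0% T. The call against ORFs was lost without either H2O2 library of Sro9, either untreated library of Sro9, the first H2O2 or the second untreated library of Slf1 (2.85 to 3.60 points, exact test, adjusted p = 0.0625 in each of these 6). It was also lost with at least 20 reads per cluster (2.83 points, exact test, adjusted p = 0.203), which leaves 83 before-start clusters.

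Median cluster length was 19.5 to 30 nt before start codons and 27 to 36 nt in ORFs, shorter in 8 of 8 libraries (mean difference -5.31 nt, exact test, adjusted p = 0.0195). In the Sro9 libraries alone the difference was -1.75 nt. With at least 20 reads per cluster the difference was -4.625 nt (exact test, adjusted p = 0.208). Length did not differ detectably from after-stop clusters (-1.19 nt, exact test, adjusted p = 0.647). Median reads per cluster were 8 to 25 before start codons and 12 to 25 in ORFs (difference -1.63, exact test, adjusted p = 0.260), and T-C conversions per read averaged 0.906 ± 0.342 and 0.886 ± 0.0484 (SD over 8 libraries, exact test, adjusted p = 0.922). The widest departure was the second H2O2 library of Slf1, in which 5 before-start clusters had a median of 0.111 conversions per read.

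**Figure D3:**
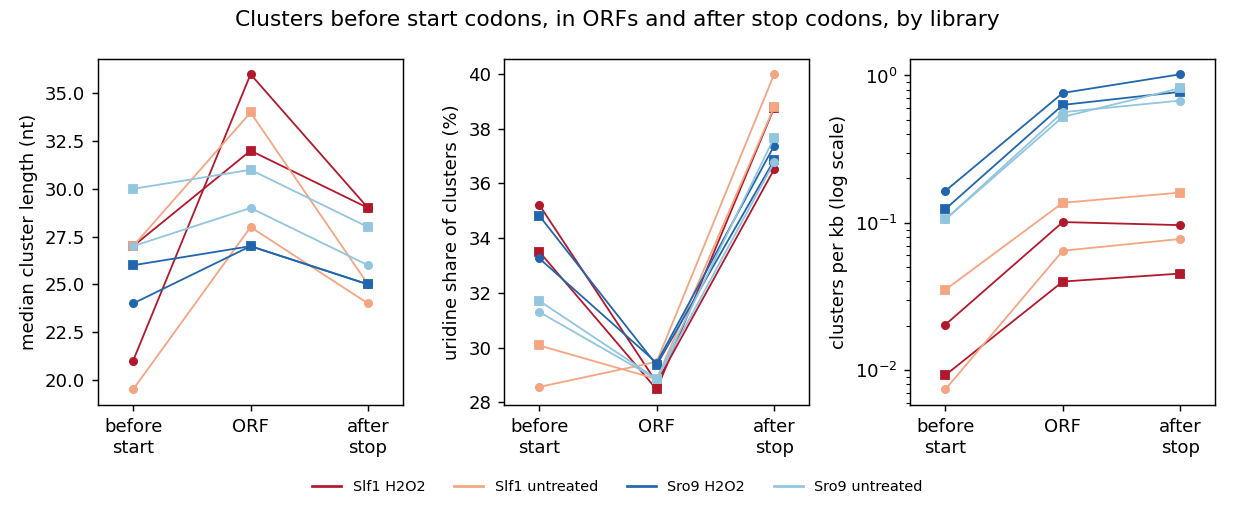
Median cluster length (nt), uridine share (%) and clusters per kb (log scale) of before-start, ORF and after-stop clusters. Each line joins the values of 1 library (circle, replicate 1; square, replicate 2); in every library clusters per kb are lower before start codons than in ORFs.

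Among before-start sites, those clear of the start codon were the ones with most uridine. In the 151 sites whose strongest cluster ended before the start codon, T made up 36.0% of the bases and A 24.7%, against 29.0% and 36.8% in the 5090 complete windows. Sites after stop codons held 36.7% T. The windows held 24.4% T and 41.8% A at 1 to 10 nt, and 31.7% and 34.7% at 91 to 100 nt. Sites clear of the start codon were not matched to the windows by position. TTTT was present in 48 of these 151 sites (31.8%), against 18.8% of all 25-nt stretches (their median length) of the windows on the gene's strand. A word with T or C, then G, then G or C, then T (TGGT being one) was present in 46 sites (30.5%), against 16.5% of stretches. ATG was present in 7 sites (4.64%), against 16.6%, and AAAA in 23 (15.2%), against 27.7%. TGTANATA, the Puf3-type element, was present in 0 of the 151 sites and in 0.369% of stretches. A cluster enters only with T-C conversions, so the rule itself favours stretches with T, which the windows do not share. Only the gene's strand was searched, the 4-letter words can overlap one another, and the genes with sites were not matched to all genes for RNA level, so that a match is a description of the letters alone.

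Of the lists, ribosomal protein genes had most sites. A site lay before 31 of the 137 cytosolic ribosomal protein genes (22.6%), against 196 of all 6021 (3.26%), and these held 46 of the 236 sites (19.5%) and 2381 of the 5680 reads (41.9%). By library, ribosomal protein genes took 3 of 11 and 1 of 5 before-start clusters for Slf1 after H2O2, against 21.2% and 23.0% of ORF clusters, and 1 of 4 and 9 of 19 for untreated Slf1, against 24.2% and 23.8%. For Sro9 the shares were 24.7% and 20.9% after H2O2, against 8.94% and 11.7% of ORF clusters, and 31.6% in both untreated libraries, against 12.6% and 11.7%. In all 4 Sro9 libraries the share before start codons was thus above that in ORFs, while the Slf1 shares rest on 1 to 9 clusters and lay on either side. Among after-stop clusters the Sro9 shares were 14.6% and 17.0% after H2O2 and 16.4% and 15.1% untreated. In each Sro9 library they lay above the ORF share and below the before-start share.

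Genes with a site were mostly among the abundant mRNAs. The 195 genes with a site and enough counts had a median of 6.10 on the log2(CPM per kb + 1) scale in WT after H2O2 and 5.90 untreated, against 4.21 and 4.14 for the 3464 genes with an ORF cluster and no before-start site. Without ribosomal protein genes the 164 others had medians of 5.49 and 5.30. Of the 195, 79 lay among the top 10% of coding genes after H2O2 and 87 untreated. What part the RNA level has in where clusters were found was not tested.

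The other lists held fewer sites than the ribosomal protein genes. The share of genes with a site was 13.2% for translation factors, 15.4% for glycolysis and fermentation and 8.57% for oxidative stress enzymes. It was 11.8% for chaperones and 13.2% for cell wall and secreted proteins, against 3.26% of all protein-coding genes. Sites lay before 7 of 53 translation factor genes, led by EFT2 (elongation factor 2, 37 reads in 3 libraries) and TEF2 (elongation factor 1 alpha, 33 reads in 1), and before 4 of 26 genes of glycolysis and fermentation, led by CDC19 (pyruvate kinase, 76 reads in 1 library). Of 35 oxidative stress enzyme genes 3 had a site, namely GSH1, GPX2 and PRX1, with 28, 12 and 8 reads. Chaperone genes had sites in 4 of 34 and cell wall and secreted protein genes in 5 of 38, led by CCW12, whose 53 reads came from 3 Slf1 libraries. None of the 3 LARP genes had one.

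Few sites recurred at the same position. Of the 236 sites, 187 (79.2%) had their mode in 1 library only, 17 were found in both Sro9 libraries after H2O2, 12 in both untreated Sro9 libraries and 0 in both Slf1 libraries of either condition. Among sites of Sro9 after H2O2, 12.2% before start codons recurred, against 14.7% in ORFs and 19.0% after stop codons, and untreated 11.8% recurred, against 12.1% and 16.2%. Overlap gave higher values than modes. When any cluster of the other replicate sharing at least 10 nt counted, 40.4% of before-start clusters were overlapped for Sro9 after H2O2 and 42.1% untreated, against 50.3% and 46.4% of ORF clusters. For Slf1 this was 2 of 16 clusters after H2O2 and 2 of 23 untreated, against 29.1% and 32.9% in ORFs. In all, 61 of the 187 single-library sites were overlapped by a cluster of another library, for 26 of them one with its mode in the ORF.

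The 4 sites found in all Sro9 libraries lay before RPS12, MET4, RPS2 and RPL1B. RPS12 encodes ribosomal protein eS12, and its site, 51 nt before the start codon, held 87 and 24 reads for Sro9 after H2O2 and 167 and 42 untreated. Slf1 had 10 reads there in 1 untreated library. The untreated values enclosed one of the H2O2 values, so the conditions overlapped. RPS2, another small subunit protein, had the one site found in 6 libraries. Its site, 76 nt before the start codon, held 14 reads in 1 Slf1 library after H2O2 and 11 in 1 untreated, and 57 and 58 for Sro9 after H2O2 against 32 and 22 untreated. RPL1B, of the large subunit, held 45 and 47 reads for Sro9 after H2O2 and 30 and 28 untreated at a site whose mode lies 60 nt before the start codon. At RPS2 and RPL1B both H2O2 libraries of Sro9 were above both untreated ones before scaling for depth.

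MET4 had the second most reads of any site and an RNA level below the median of coding genes. It encodes the transcriptional activator of sulfur amino acid synthesis. Its site, with the mode 12 nt before the start codon in the T-rich tract shown above, held 90 and 68 reads for Sro9 after H2O2 and 38 and 46 untreated, and 6 in 1 Slf1 library after H2O2. These 248 reads were 89.5% of all mRNA reads assigned to the gene, whose ORF clusters held 29. The 248 reads carried 495 T-C conversions, close to 2 per read in each library and in clusters with the same ends, where reads were mapped with at most 2 mismatches and the library medians before start codons were 1.30 per read or less. What part this has in the count was not tested. The MET4 RNA averaged 7.65 CPM per kb in WT after H2O2 and 9.79 untreated, above 38.1% and 45.3% of coding genes. RPS12, at 1450 and 1921 CPM per kb, was above 99.4% and 99.5%, and there the before-start reads, 369 over 2 sites, were 14.6% of the gene's reads.

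Other strong sites depended on which library was read. The acidic stalk protein gene RPP1A had 236 reads, the highest of any before-start cluster, in the first H2O2 library of Sro9 alone. That cluster ran over the start codon and 66 nt past its first base, and 2 Slf1 libraries after H2O2 had 23 and 31 reads overlapping it in clusters with the mode inside the ORF. Its partner gene RPP2B, 58 nt before the start codon, held 16 reads in 1 untreated Slf1 library, 73 and 59 for Sro9 after H2O2 and 23 in 1 untreated Sro9 library, while the other untreated Sro9 library had 45 reads in an overlapping cluster counted as the next site. RPS31, which encodes ubiquitin fused to a small subunit protein, had 55 reads in 1 Sro9 library after H2O2 and 31 in 1 untreated, and with overlapping clusters 55 and 47 after H2O2 and 27 and 31 untreated. RPL28 held 22 reads in 1 Sro9 library after H2O2 and 56 and 20 untreated, and RRT15 85 and 22 in the untreated Sro9 libraries. RPL4B held 11 in 1 Slf1 and 71 in 1 Sro9 library, both untreated, while overlapping clusters gave 14 reads in 1 Slf1 library and 36 and 31 for Sro9 after H2O2, and 66 in the other untreated Sro9 library.

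HAC1, the transcription factor gene of the unfolded protein response, whose mRNA is spliced in the cytoplasm, had a site at its start codon. By mode it was found only after H2O2, with 36 reads in 1 Slf1 library and 47 in 1 Sro9 library. By overlap, however, the same stretch held 21 reads in the other Sro9 H2O2 library and 54 and 25 in the untreated Sro9 libraries, with the mode inside the ORF. The condition in which this site was listed thus followed which side of the start codon its mode fell on.

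**Figure D4:**
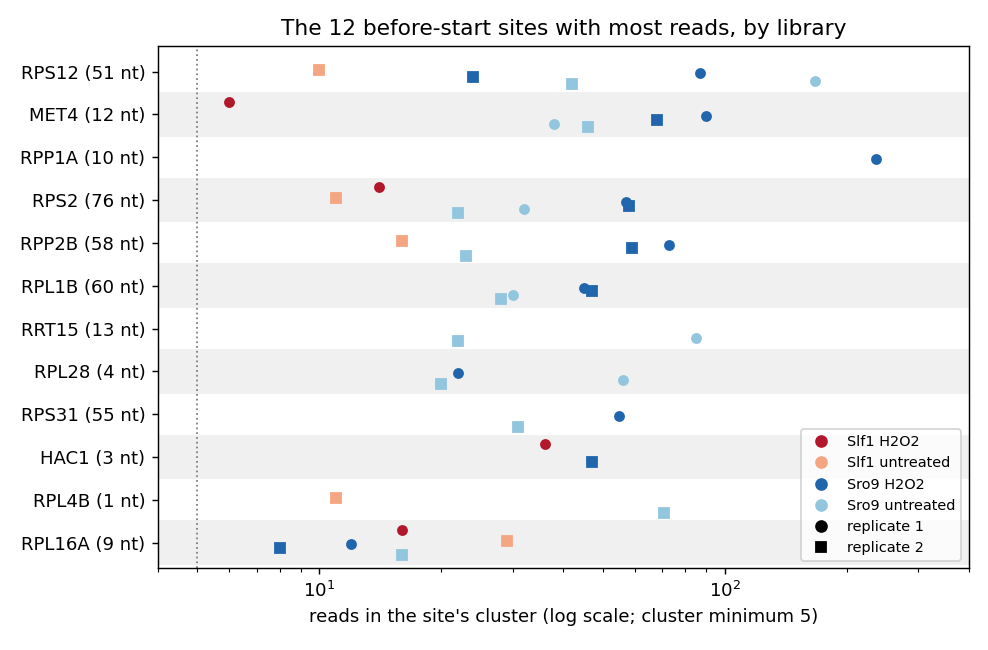
Reads per library (log axis) in the 12 before-start sites with most reads, with the distance of the mode from the start codon beside each name. Colours give the protein and condition and shapes the replicate; no point is drawn where a library had no cluster with its mode in the site, and RPS12, MET4, RPS2 and RPL1B have a point in all 4 Sro9 libraries.

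Slf1 sites were few, and none had its mode in both replicates of a condition. By overlap some stretches did recur, and CCW12 is given here, chosen after its values were seen. Clusters over the same CCW12 stretch held 15 and 32 reads for Slf1 after H2O2, 6 in 1 untreated Slf1 library and 0 in the Sro9 libraries. Of 36 sites with an Slf1 cluster, 11 also had a Sro9 cluster and 25 did not, of which 12 were overlapped by a Sro9 cluster with another mode. The 5 with most Slf1 reads were at RPL16A, RPS12, RPS20, HAC1 and TEF2, all with the mode at most 10 nt before the start codon and the strongest cluster running into the ORF. RPL16A had 16 reads for Slf1 in 1 library after H2O2 and 29 in 1 untreated, and 12 and 8 for Sro9 after H2O2 and 16 in 1 untreated library. The other untreated Slf1 library had 15 reads over the RPL16A site in an ORF cluster. The second RPS12 site, 3 nt before the start codon, had 39 reads in 1 untreated Slf1 library, and 1 Sro9 library after H2O2 had 33 reads over it in an ORF cluster. RPS20 had 12 reads in 1 Slf1 library after H2O2 and 27 in 1 untreated and no Sro9 mode. ORF clusters over the same stretch held 44 reads in the other untreated Slf1 library. All 4 Sro9 libraries had such ORF clusters too, with 933 and 356 reads after H2O2 and 262 and 270 untreated. TEF2 had 33 reads in 1 Slf1 library after H2O2, and ORF clusters over the same stretch held 25 and 28 reads for untreated Slf1 and 47 and 31 for Sro9 after H2O2.

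A few Sro9 sites were found in both libraries of 1 condition and not in the other, and they were picked out after their values were seen. Sites at ALA1, DAL7, GLY1, MET12, NAB3, OPI3 and RET3 had a cluster in both H2O2 libraries of Sro9 and no untreated Sro9 cluster over them. At OPI3, however, 1 untreated Slf1 library had 7 reads over the same bases. NAB3, an RNA-binding protein of transcription termination, had the mode nearest the start codon of these, at 23 nt, with 20 and 8 reads, and the reads of the others were 5 to 19 per library. FUR1, an enzyme of uracil salvage, and RPS3, with modes 1 and 9 nt before the start codon, had 26 and 14 and 28 and 19 reads in the untreated libraries and no cluster after H2O2. Many of these values lie close to the minimum of 5 reads.

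No before-start site was called between conditions or proteins. Reads per site were fitted over all 4 groups with edgeR's quasi-likelihood test and Benjamini-Hochberg adjustment over the 4089 sites of any location that had enough reads, among which were 24 of the 236 before-start sites. These 24 passed because their reads were high in some libraries. For Sro9 after H2O2 against untreated, 0 of the 24 were called at an adjusted p under 0.05, as were 0% of all sites. Of the 24, 4 (16.7%) had an unadjusted p under 0.05, against 10.6% of all sites. For Slf1 after H2O2 against untreated the count was 0 of 24, against 0% of all sites. At an unadjusted p under 0.05 there were 0, against 1.37% of all sites. For Slf1 against Sro9 it was 0 of 24, against 0% of all sites. Here 3 (12.5%) had an unadjusted p under 0.05, against 13.6% of all sites. These were RPL1B, MET4 and RPS12, all lower for Slf1, where the median log2 change over all sites was -4.72. The smallest adjusted p from edgeR among them was 0.218. DESeq2 called 0 of the 24 in each comparison, and 59, 55 and 135 of all sites. Even fitted log2 changes as large as 6.52 (OPI3) and -7.15 (RPS3) between Sro9 conditions had an adjusted p of 0.430 by edgeR, so that 0 calls say little of these sites. The reads are not scaled to RNA level, and a site enters as 0 in a library without a mode there, also where reads of another cluster cover it.

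Total RNA of the genes with a before-start site was compared to show how the mRNAs themselves moved. As a check of the labels, SRO9 had 0 or 1 counts in the 4 sro9Δ libraries and 45 to 3187 in the others, and SLF1 had 0 in the 4 slf1Δ libraries and 6 to 263 in the others. The libraries held 3323216 to 21447260 counts, and features of the rRNA locus and mitochondrial rRNA took 1.65% to 94.8% of them. The shares were 27.8% and 81.4% in WT after H2O2 and 47.4% and 7.54% in WT untreated. MET4, for one, had 31 to 559 counts in the 4 WT libraries. CPM here are counts scaled to a common library size with TMM, a trimmed mean over genes.

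In WT, peroxide changed the RNA of many genes with a site. Of the 195 tested, 77 were called after H2O2 against untreated (39.5%), where 35.6% of all 7375 features were, with 31 higher (all features, 19.4%) and 46 lower (16.2%) by edgeR's quasi-likelihood test. Their median log2 change was -0.41, against 0.03 for all features and -0.05 for genes with an ORF cluster and no before-start site, of which 41.2% were called. The ribosomal protein genes with a site had a median of -0.98 (0 of 31 higher, 7 lower), and all 137 had -1.09 (0 higher, 38 lower). Of translation factor genes with a site 0 of 7 were higher and 2 lower, against 0 and 22 of all 53. Of the chaperone genes with a site, 2 of 4 were higher and 1 lower, against 16 and 2 of all 34. For glycolysis and fermentation 1 of 4 was higher, against 7 higher and 1 lower of 26, and for cell wall and secreted protein genes 0 of 5 were called, against 5 higher and 7 lower of 37. The count of 77 fell to 31 without the first H2O2 library of WT (12.7% of all features called) and 51 without the second (26.0%).

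All 3 oxidative stress enzyme genes with a site were higher after H2O2, as were 28 of the 35 on the list. GPX2, a glutathione peroxidase homologue, had 715 and 466 CPM in WT after H2O2 and 15.7 and 22.0 CPM untreated, a log2 change of 4.97 ± 0.44 (SE, edgeR adjusted p = 1.00e-06). PRX1, the mitochondrial peroxiredoxin, had 334 and 263 CPM after H2O2 and 16.2 and 26.2 CPM untreated (3.80 ± 0.36, edgeR adjusted p = 1.75e-06). The polyubiquitin gene UBI4 had 464 and 328 CPM after H2O2 and 26.3 and 52.6 CPM untreated (3.32 ± 0.41). YLR297W, of unknown function, had 25.6 and 23.1 CPM after H2O2 and 1.05 and 2.38 CPM untreated (3.69 ± 0.42). NSR1, a nucleolar protein of rRNA processing, was lower, with 11.2 and 16.6 CPM after H2O2 and 341 and 129 CPM untreated (-4.13 ± 0.54). These 5 were picked from called genes whose groups did not overlap, so that the lack of overlap follows from the choice. Groups did not overlap in 142 of the 195 genes tested. The share over all features was not counted, so this number cannot be read as a trait of these genes. The log2 changes of the 5 genes kept their sign under all 9 alternatives. Their sites were weak: GPX2 had 6 reads in 1 Sro9 library of each condition, PRX1 8 reads in 1 untreated Sro9 library, NSR1 21 and YLR297W 9 in the first H2O2 library of Sro9, and UBI4 11 and 5 at 2 neighbouring sites.

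**Figure D5:**
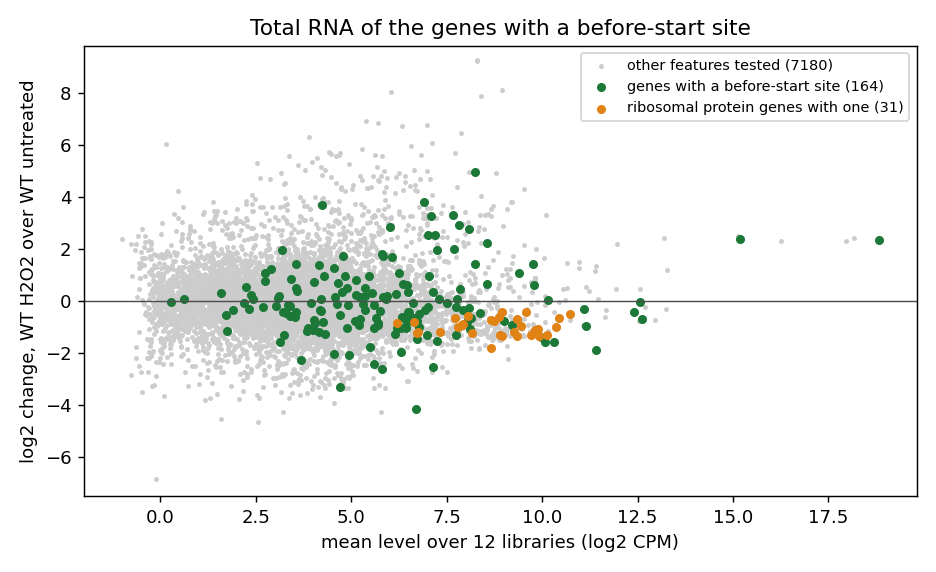
Log2 change of total RNA in WT after H2O2 over WT untreated, against the mean level over the 12 libraries (log2 CPM), for all features tested; green points are the 164 genes with a before-start site outside the ribosomal protein list and orange points the 31 ribosomal protein genes with one. The orange points all lie below 0, and the 2 green points at the far right are TAR1 and RRT15, at the rRNA locus.

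With all libraries, no gene with a site was called in either deletion strain by edgeR's quasi-likelihood test without a replicate block. With the block, 1 was called, PRX1 in slf1Δ after H2O2 (log2 -1.29, edgeR adjusted p = 0.0451). For sro9Δ against WT untreated 0 of 195 were called, against 0.217% of all features (0.136% higher, 0.0814% lower), with 24 at an unadjusted p under 0.05, and for slf1Δ 0 of 195, against 0.149% (0.0678% higher, 0.0814% lower), with 21. After H2O2 the counts called were 0 for sro9Δ, against 0.0407%, and 0 for slf1Δ, against 0.705% (0.149% higher, 0.556% lower). At an unadjusted p under 0.05 there were then 15 (7.69%, against 8.52% of all features) and 21 (10.8%, against 14.1%). All 4 contrasts share the WT libraries of their condition. DESeq2 called PYC1, UBI4 and IDH1 higher in untreated sro9Δ, AHA1 higher and YRO2 lower in untreated slf1Δ, and GIC2 higher in sro9Δ after H2O2. It called PRX1, UBI4, YRO2 and LSP1 lower in slf1Δ after H2O2 (log2 -1.22, -1.34, -1.43 and -1.27), and all of these were named after their values were seen. PRX1 there had 103 and 148 CPM in slf1Δ and 334 and 263 CPM in WT, and UBI4 had 112 and 195 CPM in slf1Δ and 464 and 328 CPM in WT. Both slf1Δ libraries were below both WT libraries at these genes, and rRNA-locus features took 94.8% and 1.65% of the slf1Δ counts. The untreated counts of 0 rest on single libraries. Without the second untreated WT library, edgeR called genes with a site in both untreated deletion strains, more than without any other library. Calls also appeared in untreated slf1Δ without the first untreated WT library (YRO2, log2 -2.46, and HIS6, 1.37). In untreated sro9Δ, 1 appeared without its own first library (PYC1, log2 1.83).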

How the data were processed

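PAR-CLIP clusters were deposited by the authors as 1 table per library, made with Trim Galore, Bowtie 1.2.0 and the cluster caller PARalyzer on R64 (sacCer3), with read counts, counts of T-C conversions and a mode score given as a fraction. Reads could map to up to 10 places, and clusters were called in each library. All 36054 cluster sequences matched R64. Total RNA was rRNA-depleted and deposited as whole-number counts per gene from featureCounts.

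Locations were assigned by the mode, in the order gene, within 200 nt after a stop codon, within 100 nt before a start codon. Before-start clusters of a gene were joined over libraries into a site when their modes lay less than 10 nt from the first. Named were the 12 sites with most reads, any in at least 6 libraries, any in both Slf1 replicates, the 5 with most Slf1 reads, and, per total RNA comparison, the 5 called genes with the largest change the same way in both replicates. Other names are given as chosen after their values were seen. Gene lists were by symbol, and members and lists were chosen with earlier results of these data known.

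Site reads and gene counts were fitted over all groups with edgeR 4.0.16 (quasi-likelihood, TMM, Benjamini-Hochberg adjustment, called at an adjusted p under 0.05) in R 4.3.3, with DESeq2 1.42.0 as an alternative. Both fits were tested on simulated data in which 200 of the features with higher counts were changed by a log2 of 2. Of these, 72% were called for sites and 78.5% for genes, with 7 and 5 false calls. The simulation used a fixed spread and no 0 entered for lack of a mode. It therefore does not show how the site fit performs on these data. Shares used exact permutation and sign-flip tests in scipy 1.17.1. Alternatives were the read minimum, windows of 50 and 200 nt, genes on either strand, weighting by reads, the normalisation and filter, a replicate block and leaving out each library. The 8 total RNA libraries of tagged strains were not used, because labels and file names disagree on the strain. Intervals cover counting error only, since no source used here names molecular identifiers.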

Additional observations from a re-analysis of the deposited data

How the results depend on the processing

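Of 271 alternatives over 26 results, 224 were scored as unchanged. For counts of called sites or genes this meant 0 in both fits, or counts within 1.5-fold of each other. For the other results it meant the same direction and side of the threshold. The Slf1 minus Sro9 share (-0.182 points) was 0.267 with a 200-nt window (exact permutation p = 0.143) and -0.137 weighted by reads. The Sro9 share after H2O2 minus untreated was -0.157 with at least 20 reads per cluster and -0.00450 with 200 nt. With at least 20 reads, differences from ORF clusters were -0.0203 conversions per read, -4.625 nt and 2.83 points of uridine, and from after-stop clusters -0.0923 conversions and 3.25 nt. In genes with both kinds of cluster, which by construction have a cluster in a short window, they were -19.9 reads, 0.158 conversions, 3.07 points and a log2 density of 1.28 against ORFs, and -28.1 reads and 0.79 against after-stop. In the Sro9 libraries alone, where 4 libraries cannot reach the threshold, they were -1.75 nt, 3.65 points and -2.32 against ORFs, and 0.75 nt, -4.39 points and -2.73 against after-stop. By means over clusters, reads differed by -17.6 and -12.9. The cause of these changes was otherwise not tested.

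Without 1 library, the ORF differences ranged from -0.0308 to 0.121 conversions per read and 2.85 to 3.91 points of uridine, and the after-stop differences from -1.29 to 0.429 reads and -0.0167 to 0.150 conversions. Called genes with a site ranged from 31 to 71 in WT, 0 to 17 in untreated sro9Δ and 0 to 24 in untreated slf1Δ. A lone remaining sample was assumed to vary like the other groups. DESeq2 called 3 (sro9Δ) and 2 (slf1Δ) untreated, and 1 (sro9Δ) and 4 (slf1Δ) after H2O2. These counts too are given without the share of all features that DESeq2 called, and are no result about these genes.

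Total RNA cultures were split between conditions, and no split is described for PAR-CLIP. No source used here ties equal replicate numbers to 1 culture, and the numbers were not taken as pairs. Deviations of same-numbered libraries correlated at -0.137, -0.0442 and 0.194 (total RNA) and -0.0312 and -0.0540 (PAR-CLIP). With a replicate block, 1 gene with a site (PRX1, -1.29) was called in slf1Δ after H2O2 and 78 in WT, and 0 in the other deletions and in PAR-CLIP sites. Depth limits Slf1 most, with 39 before-start clusters in all.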

Other observations

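Before-start reads were a small part of most genes' reads and nearly all of them in a few. In 170 of the 196 genes with a site an ORF cluster was found too, and the median before-start share of a gene's reads was 7.19%. In 44 genes the strongest cluster lay before the start codon, and in 31 the share was over 50%. Besides MET4, these included, chosen after their values were seen, CLN3, a G1 cyclin with 65 reads before the start codon and 27 in the ORF (70.7%), RPC25, a subunit of RNA polymerase III with 64 and 9 (87.7%), and OPI3, an enzyme of phosphatidylcholine synthesis with 38 and 30 (55.9%). LYS5 (24 reads), DAL7 (21) and FEN2 (17) had no ORF reads. Of the 196 genes, 19 (9.69%) have an intron in the coding sequence, against 329 of all 6021 (5.46%). Most of these 19 are ribosomal protein genes, and the share apart from that list was not tested.

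The ends of the clusters carried a base preference of their own. The first base was A in 79.0% of before-start clusters, against 70.8% of ORF and 69.5% of after-stop clusters. The base just before was G in 34.95%, against 42.7% and 39.5%, and the mode lay on a T in 30.7%, against 26.5% and 34.5%. RNase T1 cuts after G.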
